A study of Mus musculus with 12 samples.

Results

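The genes described here were Mecom and its homologue Prdm16, 2 of the 35976 gene names in the deposited tables, taken by name with repeated names added together. Mecom encodes EVI1, the zinc finger protein that forms the second partner of the leukaemia fusion RUNX1-EVI1. The libraries came from A2lox.cre mouse embryonic stem cells carrying a RUNX1-EVI1 construct that doxycycline switches on. All groups carried the construct, the NoDox groups included, and the line was expanded from picked colonies after growth on mouse embryonic fibroblast feeder cells. FLK1-positive cells from embryoid bodies of 3.25 days were cultured for 1 day with VEGF at 5 ng/ml and IL-6 at 10 ng/ml. They were then kept for 18 hours with 0.5 µg/ml doxycycline (PlusDox) or without it (NoDox). Cells were sorted as HE1 and HE2, which are stages of hemogenic endothelium, the vessel lining that gives rise to blood, and as HP, hematopoietic progenitors. Each of the 6 groups had 2 biological replicates, and the labels say no more on how these were kept apart.

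Mecom and Prdm16 belong to the PRDM family, proteins that join a PR domain, related to histone methyltransferase domains, to sets of zinc fingers. Mecom has an upstream (distal) start that gives MDS1-EVI1, with the PR domain, and a downstream (proximal) start that gives EVI1, without it. EVI1 is needed to form and keep blood stem cells, is present in embryonic endothelium and is abnormally active in some myeloid leukaemias. Prdm16 acts in blood stem cells too and is best known for switching on the brown fat programme.

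In the RefSeq table for GRCm38.p6, the same genome as the mm10 build named by the submitters, Mecom (gene ID 14013, protein coding) lay on chromosome 3 from 29951296 to 30509759 on the minus strand. Prdm16 (gene ID 70673, protein coding) lay on chromosome 4 from 154316122 to 154637360, also on the minus strand. The deposited tables gave 1 value per gene name, so transcripts from the Mecom starts, which lay 496555 bases apart, could not be told apart. GENCODE release M21 listed 17 Mecom transcripts, 11 of them protein coding. Of the 17, 5 began within 500 bases of the distal start and 4 within 500 bases of the proximal start. It listed 13 Prdm16 transcripts, 7 of them protein coding, and 9 of the 13 began within 500 bases of the Prdm16 start.

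The 250 bases before each Mecom start are shown because the gene levels below sum over both starts. They come from RefSeq on GRCm38.p6, at chr3:30509760-30510009 and chr3:30013205-30013454, minus strand, read 5′ to 3′. Capitals mark matches, on either strand, to GATAA, a core letter set bound by GATA factors, and to ACAAGAT, within the sequence bound by the first zinc finger set of EVI1.
Mecom distal start: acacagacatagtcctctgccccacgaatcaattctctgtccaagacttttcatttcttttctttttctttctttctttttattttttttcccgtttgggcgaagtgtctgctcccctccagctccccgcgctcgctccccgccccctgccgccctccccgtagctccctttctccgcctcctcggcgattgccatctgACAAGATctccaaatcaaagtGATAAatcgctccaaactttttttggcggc
Mecom proximal start: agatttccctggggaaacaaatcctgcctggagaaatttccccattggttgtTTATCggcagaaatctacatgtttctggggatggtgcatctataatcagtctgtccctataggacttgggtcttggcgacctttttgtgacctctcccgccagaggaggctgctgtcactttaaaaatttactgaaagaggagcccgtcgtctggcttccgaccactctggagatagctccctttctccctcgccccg

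Before the distal start, ACAAGAT began 51 bases and GATAA 30 bases upstream, and before the proximal start the reverse form of GATAA began 198 bases upstream. GATAA was present in 25.4% and ACAAGAT in 3.0% of the 32851 RefSeq windows of 300 bases (250 before and 50 after a start). The RUNX core TGTGGT, searched on both strands, was in 16.8% of all windows and in none of the 3 windows of Mecom and Prdm16. The Prdm16 window also held neither GATAA nor ACAAGAT. The distal Mecom window held 52.0% G and C with a CpG observed over expected ratio of 1.02. The proximal window held 49.7% with a ratio of 0.49, the Prdm16 window held 61.0% with 0.94, and the median ratio over all windows was 0.38.

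The distal Mecom and Prdm16 windows shared a run of 24 bases just after the start, shown here in capitals with a few neighbouring bases, because it is the longest stretch these windows of both homologues share. These are chr3:30509710-30509739 and chr4:154636838-154636867 on GRCm38.p6, minus strand.
Mecom distal start: tctaacGCGCATGTGCGAAGGTGTCCAAAC
Prdm16 start: tgtGCGCATGTGCGAAGGTGTCCAAACtga
Only these 2 of the 32851 windows held the run, on either strand. It began 26 bases after the distal Mecom start and 9 bases after the Prdm16 start. The Mecom copy ended where its window ended, so it may run on. The proximal Mecom window shared at most 15 bases with either.

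Mecom was high in HE1, lower in HE2 and close to 0 in HP without doxycycline, and doxycycline raised it in HP. Levels are FPKM (fragment numbers corrected for transcript length and library size), with replicate 1 first. NoDox HE1 had 17.0 and 28.3, and PlusDox HE1 had 23.0 and 18.1. NoDox HE2 had 6.08 and 13.9, and PlusDox HE2 had 18.4 and 20.2. The HE1 libraries of both conditions overlapped, whereas in HE2 both PlusDox libraries lay above both NoDox libraries. Of all tested genes, 35.6% had no overlap between conditions in HE1, 50.3% in HE2 and 33.7% in HP. In HP the NoDox libraries had 0.194 and 0.205 FPKM and the PlusDox libraries 5.18 and 5.51, with a wide gap between them and little spread within each pair. Ordered by mean, the groups ran from NoDox HE1 (22.6 ± 8.005, SD, n = 2 for each group) through PlusDox HE1 (20.5 ± 3.44), PlusDox HE2 (19.3 ± 1.25), NoDox HE2 (10.0 ± 5.56) and PlusDox HP (5.34 ± 0.238) to NoDox HP (0.1996 ± 0.00811). By the limma tests below, no difference between neighbours among the first 4 groups passed the threshold. Both PlusDox HP libraries lay below both NoDox HE2 libraries, a pair that was not tested.

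**Figure D1:**
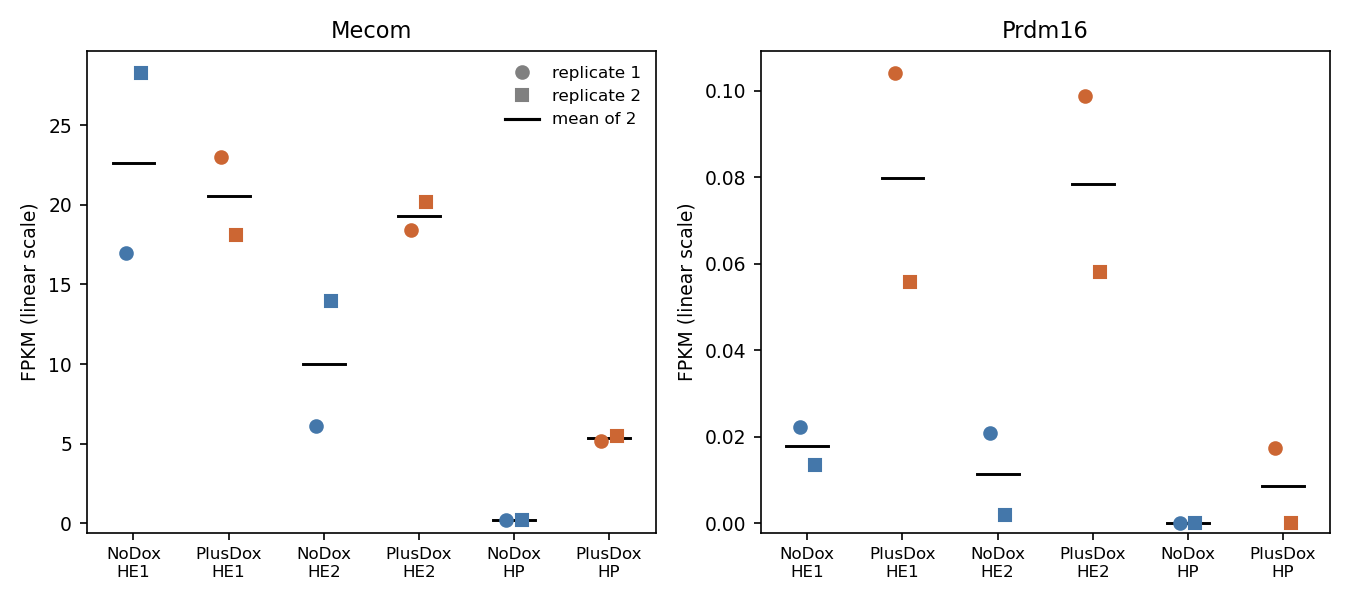
FPKM of Mecom (left) and Prdm16 (right) in each of the 12 libraries, on linear axes with different ranges. Circles are replicate 1, squares replicate 2, blue NoDox and orange PlusDox, and the black line is the mean of 2. Mecom is at 0.194 and 0.205 in NoDox HP and above 5 in PlusDox HP, and Prdm16 stays below 0.105 throughout.

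Tests of Mecom used limma on log2(FPKM + 1) over all 13316 tested genes, with Benjamini-Hochberg adjustment and a call at an adjusted p below 0.05. In HP, Mecom rose with doxycycline by 2.40 ± 0.32 (log2 difference ± SE, 95% interval 1.71 to 3.10, limma adjusted p = 0.0058), while 0.834% of tested genes were called. The ratio of mean FPKM was 26.8, larger than the log2 difference shows because the added 1 compresses levels near 0. In HE2 the difference was 0.98 ± 0.32 (0.29 to 1.67) with a limma adjusted p of 0.0923, where 6.06% of tested genes were called. It passed without NoDox HE2 replicate 2 (1.52, limma adjusted p = 0.0136), and without NoDox HE2 replicate 1 it was 0.44 (0.607). In HE1 it was −0.10 ± 0.32 (−0.79 to 0.60, limma adjusted p = 0.986), where 1.37% of genes were called. In FPKM, the mean changed by −2.07 in HE1, 9.30 in HE2 and 5.14 in HP. Leaving out either NoDox HP library ended the HP call in limma (replicate 1: 2.40, adjusted p = 0.0614 and replicate 2: 2.41, 0.0576). So did leaving out the second PlusDox HP library (2.36, 0.0561), with the difference itself almost unmoved.

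The size of the doxycycline effect on Mecom was also compared between the populations. HP exceeded HE1 by 2.50 ± 0.45 (95% interval 1.52 to 3.48), with a limma adjusted p of 0.102 and an unadjusted p of 0.000131, where 0.0375% of genes were called. The effect in HP minus HE2 was 1.42 ± 0.45 (limma adjusted p = 0.503), and in HE2 minus HE1 1.08 ± 0.45 (limma adjusted p = 0.672), where 0.015% and 0.0451% of genes were called. None of these differences passed the threshold. HP minus HE1 did pass in limma without NoDox HE2 replicate 1 or 2 (2.50, adjusted p = 0.0410 and 0.0409).

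Along the path to blood, Mecom fell from HE1 to HE2 without doxycycline by 1.16 on the log2 scale (SE 0.32, limma adjusted p = 0.0406), where 10.1% of tested genes were called. With doxycycline the same step was −0.08 ± 0.32 (−0.77 to 0.62, limma adjusted p = 0.903), where 8.59% of genes were called. From HE2 to HP, Mecom fell by 3.10 without doxycycline (limma adjusted p = 5.12e-05), and by 1.68 with it (limma adjusted p = 0.00316). Of all tested genes, 16% and 16.9% were called in these steps. The steps with and without doxycycline differ by the effects compared above, HE2 minus HE1 (1.08, limma adjusted p = 0.672) and HP minus HE2 (1.42, limma adjusted p = 0.503). Neither passed, so no change of a step with doxycycline was shown. The fall from HE1 to HE2 was lost in limma without NoDox HE1 replicate 2 (−0.80, adjusted p = 0.306) or NoDox HE2 replicate 1 (−0.62, 0.372). It also moved just past the threshold without any 1 of the 4 HP libraries (−1.16, adjusted p from 0.0509 to 0.0591).

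**Figure D2:**
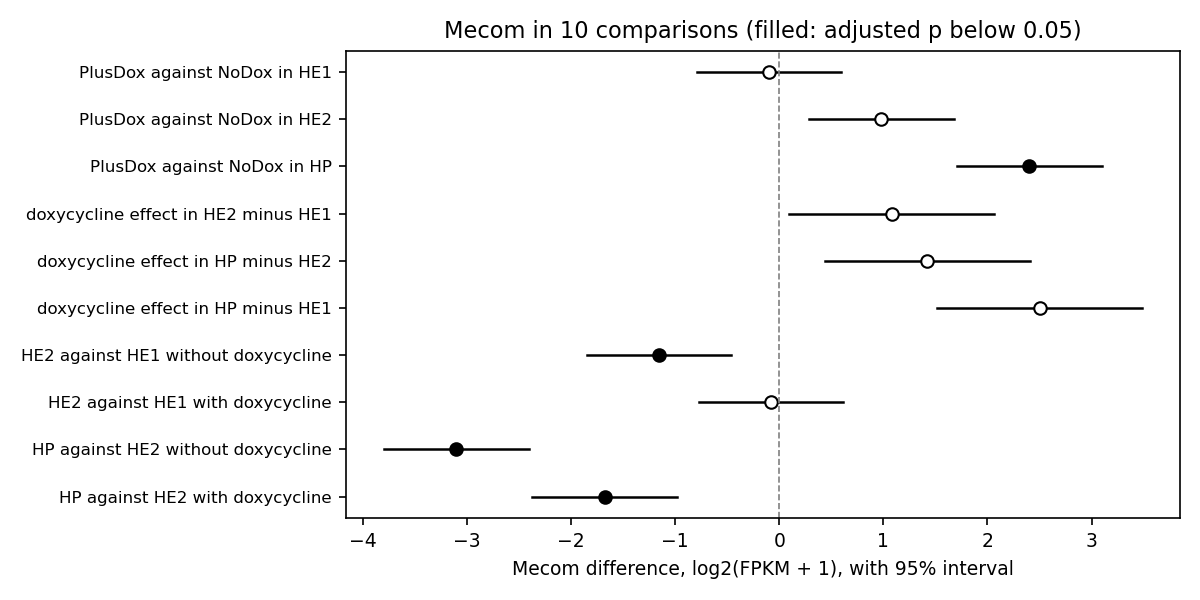
Mecom differences on the log2(FPKM + 1) scale in the 10 comparisons, with 95% intervals from limma over all 12 libraries. Filled points had an adjusted p below 0.05. The doxycycline effect is near 0 in HE1 and 2.40 in HP, and the step from HE2 to HP is −1.68 with and −3.10 without doxycycline, a difference that did not pass the threshold.

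The libraries fell into a class of 5 with Lars2, a mitochondrial leucyl-tRNA synthetase gene, at 10224 to 19970 FPKM and a class of 7 at 24.0 to 224 FPKM. The class cut across the groups, and in HP each condition had 1 library of each class. Within the low class the ratio of PlusDox to NoDox Mecom in HP was 26.7, and within the high class it was 26.8. In HE1 these ratios were 0.813 and 1.07. In HE2 the low class gave 1.84, and no NoDox HE2 library was in the high class. Relative depth ran from 0.58 to 1.60 times the median library, and the absolute depth is unknown because the tables held no counts.

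Reads of the induced construct can add to the Mecom and Runx1 values where their sequence matches the mouse genes, and in these gene values they cannot be told apart from reads of the mouse genes. No source at hand gives the species or exact sequence of the construct. Runx1, the other fusion partner and a factor required to form blood cells, showed no call with doxycycline in any population. NoDox HP had 67.4 and 56.0 FPKM and PlusDox HP 62.0 and 15.2, with overlap, and the log2 difference was −0.97 ± 0.57 (limma adjusted p = 0.720). In HE1, Runx1 had 3.56 and 1.41 (NoDox) and 3.99 and 0.993 FPKM (PlusDox), also overlapping. In HE2 it had 29.4 and 36.8 (NoDox) and 35.8 and 21.3 FPKM (PlusDox), again with overlap.

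The PlusDox HP libraries also held more RNA of endothelial genes. In sorted populations, a larger share of cells of a type and more RNA per cell cannot be told apart. Over 22 endothelial markers the summed level was 244 and 213 FPKM in NoDox HP and 518 and 395 FPKM in PlusDox HP, with none of the 22 at 0 in both libraries of either group. NoDox HE1 held 2881 and 3899 FPKM and PlusDox HE1 3469 and 2973. NoDox HE2 held 1473 and 2240 FPKM and PlusDox HE2 2707 and 2625, so that the sums in both HE2 and HP were higher in the PlusDox libraries. The part of these markers in the Mecom difference was not tested.

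The Mecom value in PlusDox HP was a larger share of its HE1 value than for most of these markers. Reads of the induced construct may be part of the Mecom values in PlusDox libraries, so the share need not be that of the mouse gene. The mean of NoDox HP was 0.883% of the mean of NoDox HE1 for Mecom, while the median over the 22 markers was 3.603% (0.115% for Nos3 to 20.8% for Erg). With doxycycline the share was 26.0% for Mecom, against a marker median of 9.10% (0.280% for Emcn to 38.3% for Erg). The share thus differed between the conditions by a factor of 29.5 for Mecom and by a median of 2.57 for the markers. Taken directly, the ratio of the PlusDox to the NoDox mean in HP was 26.8 for Mecom, with a marker median of 2.40, and 1 marker exceeded Mecom. This was Sox17, an arterial transcription factor gene of endothelium, at 32.1. Its NoDox HP level is too near 0 to rank it against Mecom on either measure. Its level was 0 and 0.050 FPKM in NoDox HP and 0.818 and 0.782 in PlusDox HP, a log2 difference of 0.81 ± 0.30 (limma adjusted p = 0.342). Nos3, Robo4 and Sox7, also below Mecom in NoDox HP, had direct ratios of 16.3, 10.0 and 9.60, well above the marker median. Cldn5 and Mmrn2, at means of 0.366 and 0.484 FPKM there, had 2.31 and 3.26. The ratio of Mecom likewise rests on a low NoDox HP level (0.194 and 0.205 FPKM).

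**Figure D3:**
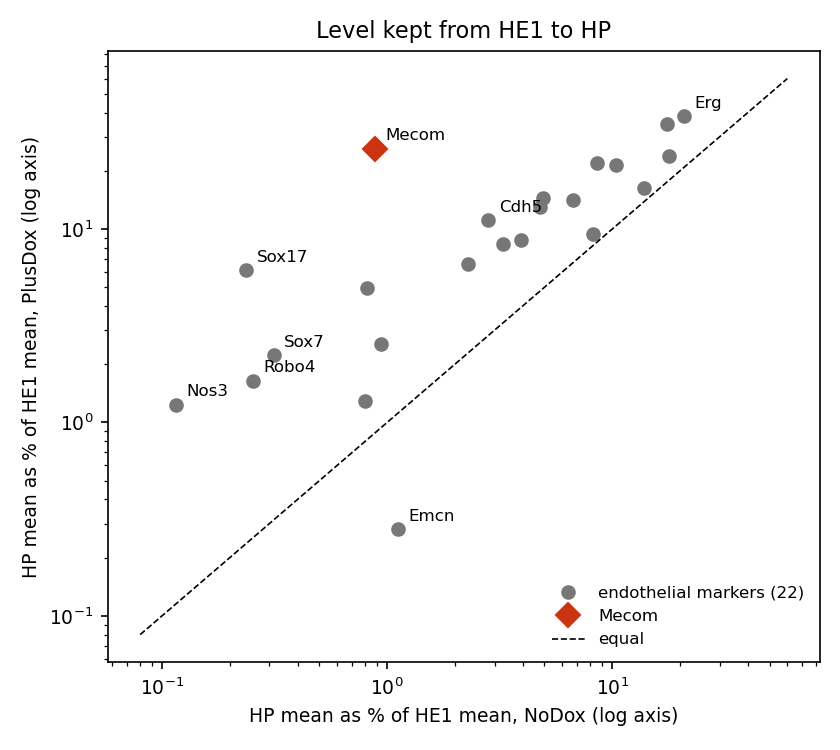
Mean FPKM in HP as a percentage of mean FPKM in HE1, without doxycycline (x, log axis) and with it (y, log axis), for Mecom (red) and 22 endothelial markers (grey), each point a ratio of means of 2 libraries. Points above the dashed line had a larger share of the HE1 level in HP with doxycycline. Reads of the construct may be part of the Mecom values with doxycycline. Mecom moves from 0.883% to 26.0%, while the marker medians are 3.603% and 9.10%.

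In HP, 4 of the 22 endothelial markers rose with doxycycline and none fell, where 0.601% of tested genes rose. The median log2 difference was 0.82 beside −0.003 over all tested genes. Cdh5, the endothelial cadherin of cell junctions, had 10.8 and 9.88 FPKM in NoDox HP and 53.2 and 36.4 in PlusDox HP (log2 1.99 ± 0.26, limma adjusted p = 0.0058). Ramp2, a partner of the adrenomedullin receptor, had 5.00 and 4.28 FPKM in NoDox HP and 17.8 and 17.7 in PlusDox HP. Egfl7 and Sox18 also rose. All 4 calls were lost in limma without NoDox HP replicate 1 (adjusted p from 0.0508 for Ramp2 to 0.0929 for Sox18) and without NoDox HP replicate 2 (from 0.0626 for Ramp2 to 0.123 for Sox18). Those of Egfl7 and Sox18 were also lost without PlusDox HP replicate 2 (0.0561) and replicate 1 (0.101), respectively.

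In HE2, 4 of the 22 rose with doxycycline, namely Nos3, Cldn5, Egfl7 and Esam, and none fell, where 3.82% of tested genes rose. Nos3, the endothelial nitric oxide synthase, had 8.43 and 13.2 FPKM in NoDox HE2 and 56.7 and 39.9 in PlusDox HE2 (log2 2.07 ± 0.27, limma adjusted p = 0.00146). The calls of Cldn5, Egfl7 and Esam were lost in limma without NoDox HE2 replicate 1 (adjusted p = 0.297, 0.163 and 0.313) or either PlusDox HE2 library (0.0530 to 0.235). That of Cldn5 was also lost without either NoDox HP library (0.0556 and 0.0557). In HE1 none of the 22 was called, where 1.37% of tested genes were called. From HE2 to HP all 22 fell with and without doxycycline, as did Mecom, where 10.9% and 10.6% of tested genes fell.

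Markers of other cell types gave the following sums in HP. Blood markers (14 genes) summed to 590 and 557 FPKM in NoDox HP and 773 and 609 in PlusDox HP, and erythroid markers (10 genes) to 10518 and 12835 and to 7017 and 11371 FPKM. Mesenchymal markers (12 genes) reached at most 89.6 FPKM and cardiac (8 genes) and pluripotency markers (6 genes) at most 3.70 FPKM in any HP library. In HE1, where Mecom was highest, blood markers summed to 57.6 to 94.1 FPKM, and the leukocyte gene Ptprc was listed at 0 in both NoDox HE1 libraries.

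Prdm16 was hardly detected in any group. The highest value over the 12 libraries was 0.104 FPKM, below the lowest Mecom value of 0.194, and where Prdm16 was above 0 the Mecom level was at least 187 times higher. NoDox HE1 had 0.0223 and 0.0134 FPKM and PlusDox HE1 had 0.104 and 0.0557. NoDox HE2 had 0.0208 and 0.00191 FPKM and PlusDox HE2 had 0.0987 and 0.0581. In both hemogenic endothelium stages the PlusDox libraries lay above the NoDox libraries. Prdm16 was listed at 0 in both NoDox HP libraries and in PlusDox HP replicate 2, with 0.0174 FPKM in PlusDox HP replicate 1.

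Prdm16 did not reach 1 FPKM in 2 libraries and so was not among the tested genes. Of 3532 genes whose highest library lay between 0.05 and 0.2 FPKM, 1.59% had both PlusDox libraries above both NoDox libraries in HE1 and in HE2, and 1.95% had the opposite pattern. With no filter on low values, the log2(FPKM + 1) difference of Prdm16 was 0.08 in HE1 (limma adjusted p = 0.363), 0.09 in HE2 (0.158) and 0.01 in HP (1). By library class, the ratio of PlusDox to NoDox in HE1 was 7.76 in the low class and 2.49 in the high class. The deepest library, PlusDox HE1 replicate 1 at 1.60 times the median, also had the highest Prdm16 value, and the shallowest, PlusDox HE1 replicate 2 at 0.58, had 0.0557 FPKM. No Prdm16 difference passed a test at these levels.

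Of the neighbouring genes of Mecom, only Rpl22l1, Mynn and Lrrc34 were tested, and none of them was called with doxycycline. Over all tested genes, 1.37% were called in HE1, 6.06% in HE2 and 0.834% in HP, so no call among so few genes says little. On the side of lower coordinates, Rpl22l1, a ribosomal protein gene copy, was at 170 to 263 FPKM over the 6 group means. Egfem1 and Gm1527 were below the filter and not tested, and Gm1527 was at 0. Egfem1 had 0.394 and 1.19 FPKM in NoDox HE1 and 0.092 and 0.177 in PlusDox HE1. In HE2, Egfem1 had 0.150 and 0.376 (NoDox) and 0.038 and 0.110 FPKM (PlusDox). On the other side, Mynn, a zinc finger gene, was at 5.32 to 6.51 FPKM, Lrrc34 at 0.573 to 2.30 FPKM, and Actrt3 was at or near 0. Gm10258, which overlaps Mecom, stayed below 0.164 FPKM. The overlapping Mecomos and Gm52621 were not among the gene names with values, so nothing can be said of their levels. Mynn, at 92328 bases from Mecom, had an HP difference of 0.11 (limma adjusted p = 0.985), against 2.40 for Mecom. Lrrc34, at 114508 bases, had 0.727 and 0.492 FPKM in NoDox HP and 1.67 and 1.75 in PlusDox HP, without overlap (log2 0.76, limma adjusted p = 0.173). Rpl22l1, further away, was at −0.35 in HP (limma adjusted p = 0.711).

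Around Prdm16, Tprgl was at 28.3 to 54.4 FPKM over the group means and was not called with doxycycline. The closest gene, Arhgef16, was below the filter with 0.099 and 0.126 FPKM in NoDox HP and 0.404 and 0.781 FPKM in PlusDox HP. In NoDox HE2, Arhgef16 had 0.031 and 0 FPKM and Megf6 0.074 and 0.101. In PlusDox HE2, Arhgef16 had 0.603 and 0.328 and Megf6 0.445 and 0.358. In HE1 the conditions overlapped for both genes, with Arhgef16 at 0 and 0.033 in NoDox and 0.446 and 0.031 FPKM in PlusDox, and Megf6 at 0.106 and 0.215 and at 0.948 and 0.194 FPKM. The lncRNA 5930403L14Rik, which overlaps Prdm16, had group means of 0.00848 (NoDox) and 0.106 FPKM (PlusDox) in HE1 and 0.00977 and 0.168 FPKM in HE2. Since the strand setting of the counting is not given, its reads and those of Prdm16 may not be told apart. Actrt2 was at 0, and Ttc34 and Mmel1 stayed below 0.1 FPKM.

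Of the 13 other PRDM family genes, 9 were tested. None of the 9 was called with doxycycline in HE1, HE2 or HP, where 1.37%, 6.06% and 0.834% of tested genes were called. At these shares, no call among 9 genes says little. Their median log2 difference was −0.16 in HE1, −0.33 in HE2 and −0.07 in HP, beside −0.07, −0.05 and −0.003 over all tested genes. Prdm4 (10.5 to 14.5 FPKM over the libraries) and Prdm2 (5.30 to 11.5) had the highest levels of the 9, and both were above Mecom in every HP library other than Prdm2 in PlusDox HP replicate 2, where Mecom had 5.51 FPKM. Prdm1, a repressor known from plasma cells and germ cells, was at 1.17 and 2.08 FPKM in NoDox HE1 and at 0.250 to 0.487 FPKM in the HP libraries. Prdm6 (2.54 to 7.42), Prdm15 (2.38 to 6.92), Prdm11 (2.44 to 6.56), Prdm10 (1.99 to 4.14) and Prdm9 (0.300 to 1.31 FPKM), the last known for placing meiotic recombination, were present at lower levels. Prdm8, Prdm12, Prdm13 and Prdm14 were below the filter.

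**Figure D4:**
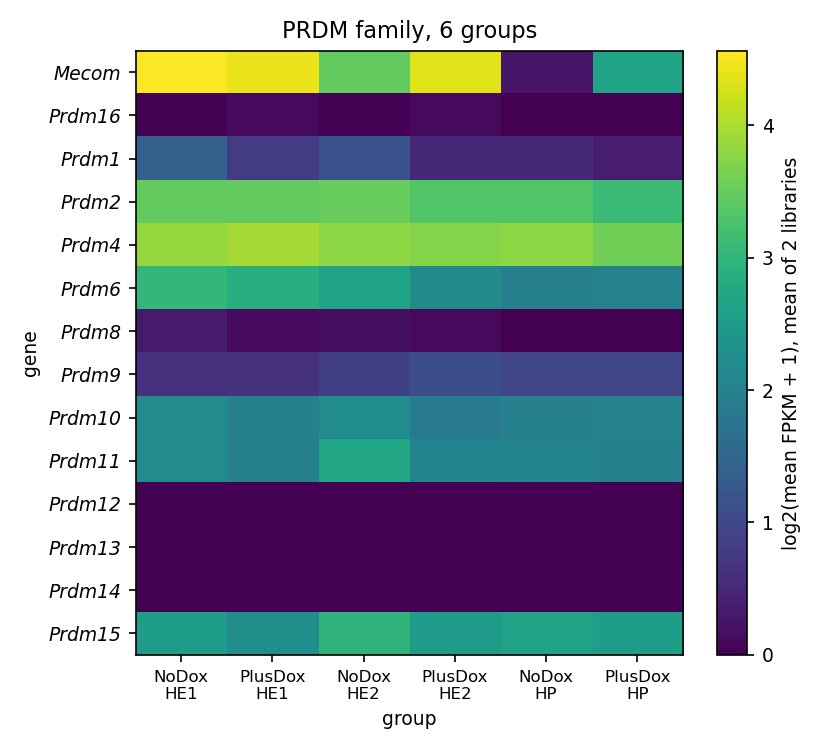
Levels of Mecom, Prdm16 and 12 other PRDM family genes in the 6 groups, as log2(mean FPKM + 1), each mean over 2 libraries. Mecom spans the widest range, from 0.1996 FPKM in NoDox HP to 22.6 FPKM in NoDox HE1, while Prdm2 and Prdm4 are present throughout.

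Genes of proteins known to act with EVI1 did not pass the test with doxycycline. Of 22 such genes, all tested, none was called in HE1, HE2 or HP, where 1.37%, 6.06% and 0.834% of tested genes were called. At these shares, no call among 22 genes says little. Their medians were −0.09, −0.18 and −0.02, beside −0.07, −0.05 and −0.003 over all tested genes. Ctbp1 and Ctbp2 encode the corepressors that bind EVI1 and PRDM16. Ctbp1 ran from 43.0 to 62.6 FPKM and Ctbp2 from 19.6 to 37.6 FPKM over the 12 libraries. Ctbp2 had 19.6 and 19.7 FPKM in NoDox HP and 28.9 and 21.9 in PlusDox HP (log2 0.34 ± 0.18, limma adjusted p = 0.635). From HE1 to HE2, Cebpb, which encodes a C/EBP transcription factor, and Dnmt3b, a DNA methyltransferase gene, rose in both conditions. They were the 2 called of the 22, near the share of all tested genes called (10.1% without doxycycline and 8.59% with it). With doxycycline the Dnmt3b call was lost in limma without PlusDox HE1 replicate 2 (1.27, adjusted p = 0.0915) or PlusDox HE2 replicate 1 (1.27, 0.0909). Cebpb had 1.57 and 2.03 FPKM in NoDox HE1 and 36.3 and 26.3 FPKM in NoDox HE2 (3.52 ± 0.23, limma adjusted p = 1.54e-05). From HE2 to HP without doxycycline, 2 of the 22 fell, where 10.6% of tested genes fell. Ski, a corepressor of TGF-beta signalling, fell by 0.96 (limma adjusted p = 0.00249). Smad3, a mediator of that signalling, was at −0.72 ± 0.22 with a limma adjusted p of 0.0496. Its call was lost without NoDox HE2 replicate 2 (−0.51, adjusted p = 0.309), either NoDox HP library (0.143 and 0.199), either PlusDox HE2 library (0.0604 each) or either PlusDox HP library (0.0537 and 0.0538).

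Of 21 genes linked to EVI1 in the literature, 20 were tested. None was called in HE1 or HP with doxycycline, where 1.37% and 0.834% of tested genes were called. In HE2, Fbp1, Spi1, Angpt1 and Cebpa rose, 4 of the 20, where 3.82% of tested genes rose. The median difference in HE2 was 0.02, beside −0.05 over all tested genes. Spi1, which encodes the myeloid factor PU.1, had 25.3 and 23.5 FPKM in NoDox HE2 and 71.9 and 55.4 FPKM in PlusDox HE2 (log2 1.34 ± 0.27, limma adjusted p = 0.0154). Fbp1, a gluconeogenesis enzyme gene, had 0.372 and 1.59 FPKM in NoDox HE2 and 6.97 and 5.65 FPKM in PlusDox HE2. Angpt1, a ligand of the Tie receptor Tek, had 0.967 and 1.34 FPKM in NoDox HE2 and 3.34 and 4.08 FPKM in PlusDox HE2.

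These HE2 calls depended on single libraries. Without NoDox HE2 replicate 1 the limma adjusted p was 0.0554 for Fbp1, 0.085 for Spi1 and 0.108 for Angpt1. The call of Angpt1 was also lost without PlusDox HE2 replicate 2 (0.0993), and that of Spi1 without NoDox HE2 replicate 2 (0.0533) or PlusDox HE2 replicate 1 (0.0712). In these same libraries Mecom was higher in PlusDox HE2 (18.4 and 20.2 FPKM) than in NoDox HE2 (6.08 and 13.9 FPKM), short of the threshold.

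The brown fat genes for which Prdm16 is known were mostly not expressed. Of 11 such genes, 8 were below the filter, among them Ucp1, the uncoupling protein, Cidea and Pparg. None of the 3 tested genes, Adrb3, Cox7a1 and Cpt1b, was called with doxycycline. Over all tested genes, 1.37% were called in HE1, 6.06% in HE2 and 0.834% in HP, so no call among 3 genes says little. Adrb3, which encodes an adrenergic receptor, was at 2.58 and 3.43 FPKM in NoDox HE1 and fell at each later step in both conditions. Of its 4 calls, only the fall from HE2 to HP with doxycycline held in limma with any 1 library left out. The others were lost without NoDox HE1 replicate 2 (adjusted p = 0.0678), NoDox HE2 replicate 2 (0.129), either NoDox HP library (0.113 and 0.0692), PlusDox HE1 replicate 1 (0.0748) or either PlusDox HE2 library (0.0726 and 0.0850). Cox7a1, a respiratory chain subunit gene, rose from HE1 to HE2 in both conditions. Without doxycycline its call was lost in limma without NoDox HE1 replicate 2 (0.68, adjusted p = 0.219) or NoDox HE2 replicate 1 (0.89, 0.166).

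EVI1 is known to restrain TGF-beta signalling through SMAD3, and 11 of 12 genes of that response were tested. Cdkn2b, a cell cycle inhibitor gene induced by TGF-beta, rose with doxycycline in HE1 and was the only one of the 11 called there, where 0.961% of tested genes rose. It had 3.30 and 4.69 FPKM in NoDox HE1 and 13.1 and 12.5 FPKM in PlusDox HE1 (log2 1.48 ± 0.23, limma adjusted p = 0.0084). This call was lost in limma without NoDox HE1 replicate 1 (1.28, adjusted p = 0.146) or PlusDox HE1 replicate 1 (1.45, 0.0574). None of the 11 was called in HE2 or HP, where 6.06% and 0.834% of tested genes were called. The list median in HP was 0.37, beside −0.003 over all tested genes. From HE2 to HP, 3 of the 11 fell and 1 rose without doxycycline, and 2 fell and 1 rose with it. Over all tested genes, 16% and 16.9% were called in these steps. Smad7 and Tgif1, inhibitors of the pathway, fell in both conditions. Ltbp2 rose in both, by 1.34 without and 1.15 with doxycycline. The Smad7 call without doxycycline was lost in limma without NoDox HE2 replicate 1 (adjusted p = 0.0617) or NoDox HP replicate 2 (0.118). The Tgif1 call with doxycycline was lost without PlusDox HE2 replicate 1 (0.208) or either PlusDox HP library (0.183 and 0.0524).

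The genes most like Mecom over the 12 libraries were sought among 9311 candidates by Pearson correlation of log2(FPKM + 1), as a description. They were Maged2 (r = 0.981), Bach2 (0.978), Thsd1 (0.978), Sgce (0.976), Ctsl (0.974) and Egfl7 (0.971). These coefficients share 12 libraries in 6 groups and mostly follow the difference between HP and the other groups, and 401 candidates had an r above 0.9. Over the 6 group means the same genes had r from 0.974 to 0.985. Thsd1, a thrombospondin domain gene of endothelium, had 3.34 and 2.56 FPKM in NoDox HP and 15.6 and 14.5 FPKM in PlusDox HP. Bach2, a transcription repressor gene known from lymphocytes, had 0.802 and 0.550 FPKM in NoDox HP and 2.29 and 2.00 FPKM in PlusDox HP.

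The most opposite profiles were those of Hsd3b1 (r = −0.981), Mylk3 (−0.966), Slc38a5 (−0.963), Lnp (−0.958), Samd14 (−0.956) and Slain2 (−0.953). Hsd3b1, a steroid synthesis enzyme gene, had 11.9 and 10.8 FPKM in NoDox HP and 2.99 and 3.75 FPKM in PlusDox HP. Samd14 had 51.6 and 42.9 FPKM in NoDox HP and 16.9 and 16.9 FPKM in PlusDox HP. These genes were picked for opposite profiles over the same libraries, so their lower PlusDox HP levels are no separate result.

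**Figure D5:**
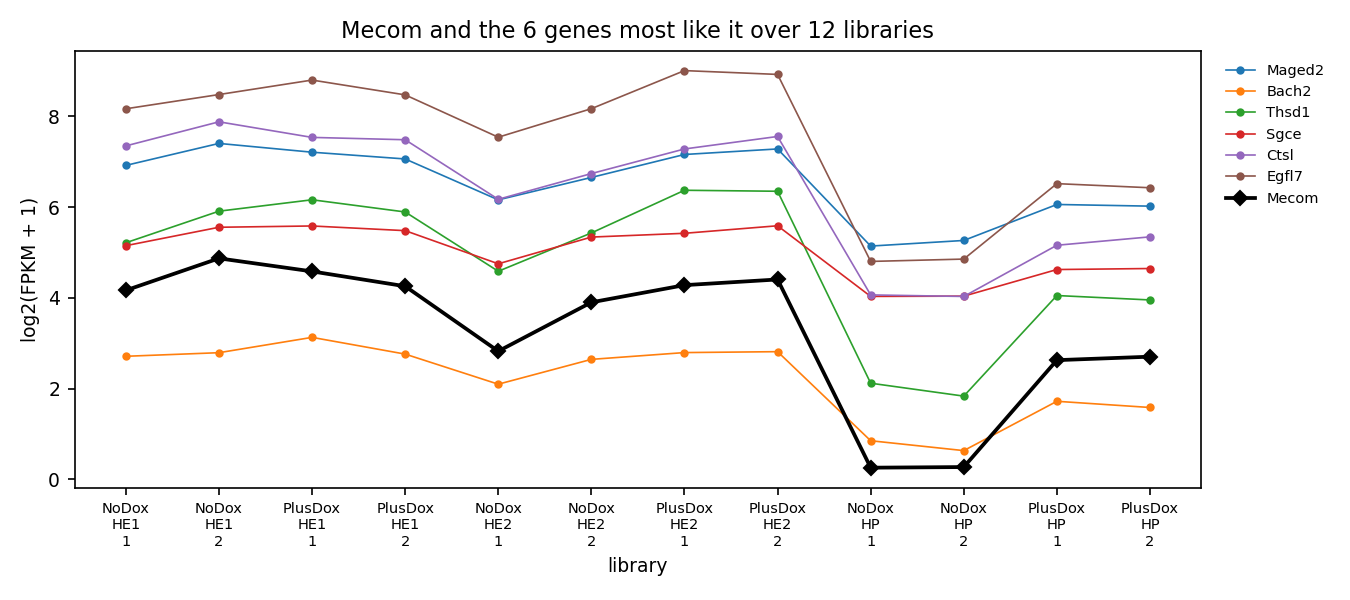
log2(FPKM + 1) of Mecom (black diamonds) and of the 6 genes with the highest Pearson r to it, in each of the 12 libraries. All 7 lines drop in HP, less so in PlusDox HP than in NoDox HP, and NoDox HE2 replicate 1, where Mecom was 6.08 FPKM, lies below replicate 2 for each gene.

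The genes most like Prdm16 were sought in the same way among 11512 candidates. The closest were T (r = 0.977), Ccdc136 (0.952), Mal (0.947), Arhgap8 (0.943), Slc35b3 (0.940) and Tmc7 (0.933), and 32 candidates had an r above 0.9. T, which encodes the mesoderm factor Brachyury, had 0.250 and 0.283 FPKM in NoDox HE1 and 1.84 and 0.914 FPKM in PlusDox HE1. Mal, a membrane proteolipid gene, was listed at 0 in both NoDox HE1 libraries and had 3.605 and 1.17 FPKM in PlusDox HE1. Both were higher in the PlusDox libraries of HE1 and HE2 and near or at 0 in NoDox HP. They were picked for likeness to Prdm16 over the same libraries, so this is no separate result. Slc35b3 was present throughout, at 8.09 to 19.0 FPKM over the 12 libraries. With Prdm16 at or below 0.104 FPKM, these coefficients rest on very small values.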

How the data were processed

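Per the labels, stranded total RNA libraries, 12 in 6 groups of 2, were sequenced paired-end as 1 pool. The submitters' processing notes name Trimmomatic 0.32, HISAT2 2.1.0, StringTie 1.3.3 and mm10. For the annotation, strand setting and sort gates, nothing was given in the sources at hand. The deposited values were read as FPKM made by the authors with StringTie, from the tool named and from sums that differed between libraries (468326 to 579055). The tables hold no counts. Relative depth came from the steps of FPKM below 0.1, and 50 of 66 library pairs gave the same ratio within 0.1 (log2).

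Genes with FPKM of at least 1 in at least 2 libraries (13316) were fitted with limma 3.58.1 in R 4.3.3 on log2(FPKM + 1), with 6 group means, an intensity trend and 6 residual degrees of freedom, moderated by a prior of 5.83. P-values were two-sided and adjusted over all tested genes in each comparison. They measure the spread between replicates pooled over the groups, and the labels do not say whether replicates were separate cultures. On simulated data the fit was checked for recovery of known changes. The rest was done in Python 3.11.15 (pandas 2.3.3, numpy 2.4.6, matplotlib 3.10.9 and scipy 1.17.1). The members, the gene lists and the tests were chosen with earlier results of these data known, so the lists are no independent support.

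Named genes were Mecom, Prdm16, Runx1, Lars2, up to 4 called members of each list per comparison by size, PRDM family genes, the 6 genes most like each member and the 3 nearest coding genes on each side. Ctbp1, Ctbp2, Sox17, Cebpa, the extremes among the marker shares and the gene overlapping Prdm16 were named outside that rule. Of 35976 names, 32501 were found in the RefSeq table. No protein sequences were used here. Some results of listed genes are not reported here. Alternatives were a pseudocount of 0.1, no filter (24684 genes), median scaling, quantile normalization, a replicate block, a library class term, only the groups compared, and each library left out. A fit to the 7 libraries with Lars2 below 1000 FPKM was added after seeing the data.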

Additional observations from a re-analysis of the deposited data

Results flagged for a closer look

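The doxycycline effect on Ramp2, an endothelial marker and partner of the adrenomedullin receptor, differed between HP and HE1 by 2.40 on the log2(FPKM + 1) scale (SE 0.31, limma interaction, adjusted p = 0.048). Ramp2 had 518 and 617 FPKM in NoDox HE1 and 405 and 312 FPKM in PlusDox HE1, whereas in HP it rose from 5.00 and 4.28 to 17.8 and 17.7 FPKM. The call was lost in limma without any 1 of the 8 HE1 and HP libraries (differences from 2.22 to 2.59, adjusted p from 0.0704 to 0.197).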

How the results depend on the processing

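The Mecom fall from HE2 to HP without doxycycline held its direction and its call in all 20 alternatives run, and the fall with doxycycline in all but the low Lars2 libraries (−1.65, adjusted p = 0.254). Fits to the 7 low Lars2 libraries had 1 residual degree of freedom. There the Mecom rise in HP was 2.37 (0.895) and the step from HE1 to HE2 without doxycycline −1.51 (0.194). The latter was also lost with a pseudocount of 0.1 (−1.24, 0.0507), with no filter (−1.16, 0.125) and with only the groups compared (−1.16, 0.132). In HE2, Mecom passed with quantile normalization (1.05, 0.0464) and with the replicate block (0.98, 0.0295). The effect in HP minus HE1 passed with a pseudocount of 0.1 (4.29, 0.012), the replicate block (2.50, 0.034) and only the groups compared (2.50, 0.0487). With 1 library left out, Mecom ran from −0.45 to 0.25 in HE1, 0.44 to 1.52 in HE2 and 2.36 to 2.44 in HP. HP minus HE1 ran from 2.15 to 2.85. HE2 against HE1 ran from −1.70 to −0.62 without and −0.24 to 0.087 with doxycycline. The lone library of a group was then assumed to vary like the others.

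Prdm16 with a pseudocount of 0.1 was 0.60 in HE1, 0.68 in HE2 and 0.12 in HP. The differences of these effects were 0.078 (HE2 minus HE1), −0.56 (HP minus HE2) and −0.48 (HP minus HE1), and the steps −0.086 (HE1 to HE2), −0.15 (HE2 to HP) and −0.71 (HE2 to HP with doxycycline). Quantile normalization, the block, the class term and only the groups compared were not run for Prdm16, which was below the filter.

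Genes called with doxycycline numbered 182 in HE1, 807 in HE2 and 111 in HP. With 1 library left out these were 2 to 191, 172 to 877 and 10 to 124. Over the other alternatives they ran from 0, 7 and 3 (low Lars2 libraries) to 459, 2296 and 305 (replicate block). The block also called 2 PRDM family genes and 3 cofactors in HE2, where 0 of each were called without it. Replicate differences correlated by number with r above 0.1 in 12 of 15 pairs of groups (range −0.1 to 0.526). As 3 pairs were at or below 0.1 and the labels tie the numbers to nothing shared, pairing was not taken as given. The share of HE2 calls that were higher was 63.1%, and 45.6% with the block, 51.6% with quantile normalization and 48.5% to 83.6% with 1 library left out.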
